A study of Mus musculus with 4 samples.

Results

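The titles place the 4 arrays of this series in 2 numbered sets. Set 2, which the labels call activated, was compared here with set 1, which they call quiescent. The arrays were chosen by the set number in their titles and by these descriptions, and all 4 of the 4 arrays took part, 2 in each set. Each set held 1 array of Tbx1 cKO (conditional knockout) hair follicle stem cells and 1 array of WT cells, so every difference could be taken within a genotype and then over both. All cells were sorted by YFP, integrin α6 and CD34 from back skin of female CD1/C57BL/6 mice of about postnatal day 60. The treatment field gives all 4 samples the same wax depilation 48 h before the skin was taken, in cKO and WT and in set 1 and set 2 alike, whereas the sample descriptions name different states for the sets. The sources used here do not say what else set the states apart, which Cre driver the cKO carried or how many animals stood behind an array. The labels do not say that arrays came from separate animals or that the sets were processed apart, so the spread between arrays may be technical, and the state named for a set cannot be told apart from anything else the arrays of a set share.

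Hair follicle stem cells sit in the bulge, the part of the follicle below the sebaceous gland, and rest for most of the hair cycle. At the start of a growth phase, or after hairs are plucked, WNT signals rise and BMP signals, which hold the cells at rest, are countered, and the cells divide to feed the hair germ and the new shaft. The cells of the interfollicular epidermis follow another course: they leave the basal layer, make keratins 1 and 10, and then build the cornified envelope from loricrin, the late cornified envelope (LCE) proteins and the small proline-rich (SPRR) proteins. The genes of these envelope proteins lie side by side with S100 genes in a cluster known as the epidermal differentiation complex.

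The largest group among the genes lower in set 2 were the Lce1 genes of that complex, and their promoters are shown because these genes are close paralogs that were lower together. RefSeq promoter windows (assembly GRCm38.p6, 250 bases before to 50 after the start) were at hand for 6 of the tested Lce1 genes. The 100 bases before the start are printed 5′ to 3′, with Lce3c, an LCE gene with no such difference, loricrin (Lor) and Ehd3, the gene called by the test, for comparison. Capitals mark the run ACTGTCTCACAGG, the longest shared by all 6 Lce1 windows, the AT-rich motifs TATAAA and ATAAAA, which can overlap, and the AP-1 type motif TGANTCA.
Lce1a1, chr3:92648308-92648407, minus strand: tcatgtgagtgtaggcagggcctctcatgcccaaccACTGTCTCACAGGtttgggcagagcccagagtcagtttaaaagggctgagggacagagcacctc
Lce1b, chr3:92656927-92657026, minus strand: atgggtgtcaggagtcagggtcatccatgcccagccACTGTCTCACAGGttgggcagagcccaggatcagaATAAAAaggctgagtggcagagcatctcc
Lce1a2, chr3:92670316-92670415, minus strand: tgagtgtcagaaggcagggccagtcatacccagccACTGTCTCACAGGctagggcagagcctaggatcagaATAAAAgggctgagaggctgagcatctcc
Lce1d, chr3:92687211-92687310, minus strand: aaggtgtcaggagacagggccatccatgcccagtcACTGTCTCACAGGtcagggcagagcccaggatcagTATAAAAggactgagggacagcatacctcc
Lce1h, chr3:92765066-92765165, minus strand: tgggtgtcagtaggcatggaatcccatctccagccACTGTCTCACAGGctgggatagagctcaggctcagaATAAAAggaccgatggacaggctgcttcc
Lce1i, chr3:92778900-92778999, minus strand: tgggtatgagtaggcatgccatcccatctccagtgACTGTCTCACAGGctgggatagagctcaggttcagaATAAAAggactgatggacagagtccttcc
Lce3c, chr3:92944386-92944485, plus strand: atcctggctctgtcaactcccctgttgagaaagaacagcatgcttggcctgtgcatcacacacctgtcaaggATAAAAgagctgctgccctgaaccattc
Lor, chr3:92083143-92083242, minus strand: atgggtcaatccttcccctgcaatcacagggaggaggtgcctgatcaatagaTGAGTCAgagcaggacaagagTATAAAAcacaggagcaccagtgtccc
Ehd3, chr17:73804741-73804840, plus strand: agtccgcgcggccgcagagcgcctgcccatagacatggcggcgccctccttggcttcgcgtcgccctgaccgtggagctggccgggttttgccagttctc
The shared run of 13 bases began 64 or 65 bases before the start in all 6. Searched on both strands of the 22862 RefSeq windows of genes with 1 window, it was present in 7 (0.0306%), those of the 6 genes and of Lce1e, out of 13 Lce1 genes with a window. The run was defined from these 6 windows, so its presence in them is built in. ATAAAA was present in 5 of the 6 Lce1 windows and in 19.9% of all windows, and TATAAA in 1 of the 6 and in 14.8% of all. TGANTCA was present in none of the 6 Lce1 windows and in 7.98% of all. Over the 5173 tested genes with a window, the shares were 9.51%, 7.11% and 4.41% in the same order. Aligned end to end, pairs of the Lce1 windows were 65.7% to 81.0% identical (median 67.5%, 15 pairs), whereas they were 52.7% to 57.7% identical to the window of Lce3c. The match is a description of letters and says nothing of a factor that binds there.

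Levels are given as log2 of the deposited linear intensity, and a difference is set 2 minus set 1 on that scale, with the standard error (SE) of the fit over 4 arrays. A gene was taken as called at a Benjamini-Hochberg adjusted p below 0.05 in limma with genotype as a block, over 8032 genes with a mean level of at least 5.40. That limit is the 40th percentile of all probe sets, and no detection call was at hand. The array medians lay between 6.36 and 6.38. The sorted population carried its defining genes on all 4 arrays: Krt15 lay between 13.39 and 13.94, Itga6 between 11.35 and 11.87 and Cd34 between 8.85 and 9.46. Ptprc, Cd3e, Col1a1, Pdgfra, Adipoq and Tyr, which mark leukocytes, fibroblasts, fat cells and melanocytes, lay below the limit on every array, but other markers of these cells did not. Above the limit on every array were 6 of 12 fibroblast markers on the array, 5 of 17 immune, 2 of 7 melanocyte and 1 of 7 adipocyte markers, among them Col1a2 at 7.06 to 7.29 and Dct at 6.07 to 6.72, and Fabp4, shared by fat and endothelial cells, was at 10.13 and 10.42 in WT and at 3.38 and 4.07 in cKO. The summed endothelial markers differed by genotype, at 8.07 and 8.19 in cKO against 11.49 and 11.39 in WT, and not by set. Of 8 sebaceous gland markers, 6 were above the limit on every array, as were 4 of 11 muscle markers. Summed sebaceous gland markers were at 12.18 (cKO) and 12.00 (WT) in set 1 and at 11.87 and 11.69 in set 2. Summed muscle markers were at 9.26 and 9.45 in set 1 and at 8.89 and 9.02 in set 2. Tbx1, the targeted transcription factor gene, was lower in cKO in both sets, at 9.54 against 10.53 in set 1 and 8.88 against 10.37 in set 2, and the sources used here do not say whether its probes lie in the deleted part.

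A different pair of arrays stood apart in control measures, 1 in each set. On the cKO array of set 1 the 3′ minus 5′ difference of the spiked Dap control was 2.95, against 1.74 to 1.82 on the other arrays, and that of actin was 1.68 against 1.09 to 1.18. On the WT array of set 2 the nuclear RNA Malat1 was at 12.35, against 9.80 to 10.56 elsewhere, Neat1 at 9.08 against 7.46 to 8.51, and the 18S probe set at 12.02 against 12.71 to 12.94. Each within-genotype difference therefore holds 1 of these arrays, and their part in the results was not tested. As a description, the cKO array of set 2 and the WT array of set 1, which do not stand apart but differ in genotype, were also set against each other.

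Few genes differed alike in both genotypes. limma called 0 of 8032 genes higher in set 2 (0%) and 1 lower (0.0125%), Ehd3. At an unadjusted p below 0.05, limma gave 288 higher (3.59%) and 403 lower (5.02%), and without the genotype block 230 in all and 0 called. The count of calls rested on the settings: with a variance trend and robust fitting limma called 18 higher and 16 lower, and with each array centred on its median 9 and 14. With 2 arrays against 2, an exact two-sided permutation test of a single gene cannot go below 0.333. At least 1.5-fold within both genotypes, 46 genes were higher (0.573%) and 65 lower (0.809%), whereas 40 were at least 1.5-fold apart in opposite directions. By sign alone, 1592 genes were higher within both genotypes (19.8%) and 2878 lower (35.8%). The median difference over all genes was -0.05. Within WT 1032 genes differed at least 1.5-fold, and within cKO 399. Across genes the 2 within-genotype differences correlated at r = 0.192 (rho = 0.158), a description over genes that share 4 arrays.

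**Figure D1:**
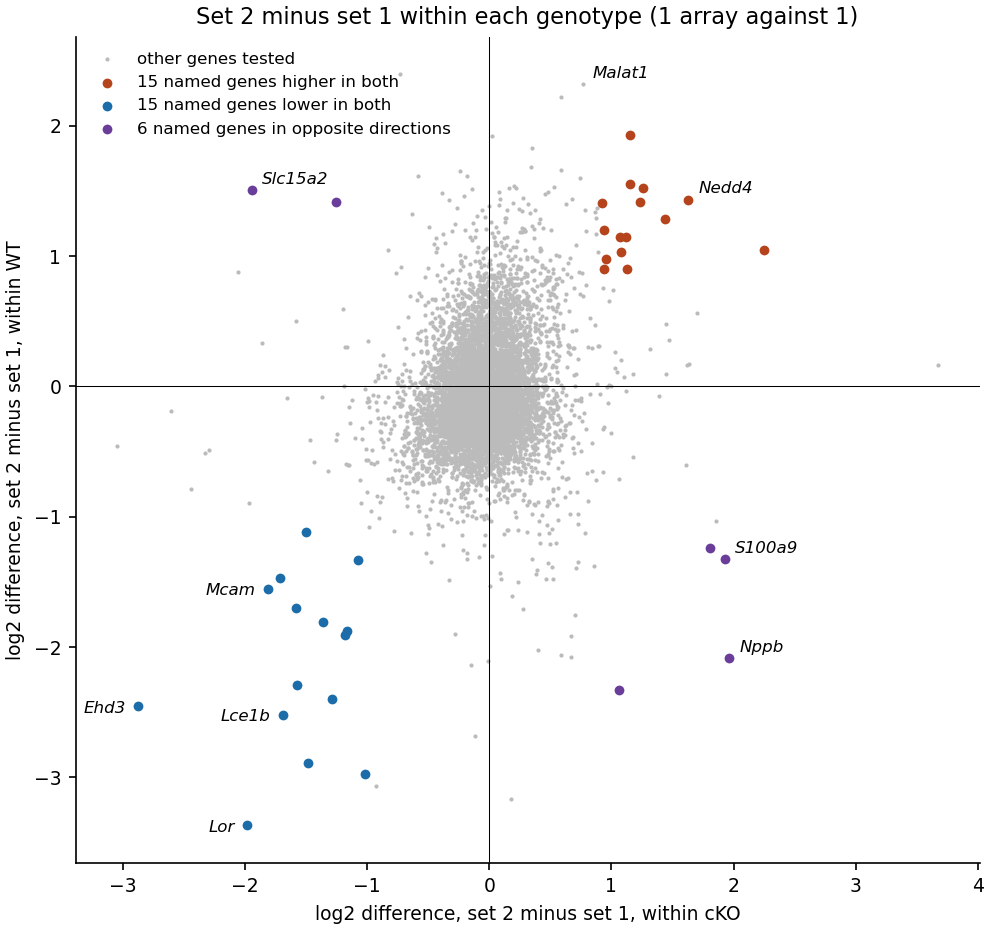
Log2 difference of set 2 minus set 1 within cKO (horizontal) and within WT (vertical) for the 8032 genes tested, 1 point per gene and 1 array against 1 on each axis. Coloured points are the 15 genes per direction with the largest difference shared by both genotypes and the 6 with the largest opposite differences. Ehd3, Lor and the Lce1 genes sit at the lower left and Nedd4 at the upper right, and Nppb and S100a9 lie at the lower right.

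Ehd3, which encodes an EH-domain protein of endocytic recycling, fell in set 2. It was at 8.24 on the cKO and 7.85 on the WT array of set 1, and at 5.37 and 5.40 on those of set 2, so the sets did not overlap and both set 2 values lay just under the limit. The difference was -2.66 (SE 0.19, limma adjusted p = 0.0204). From the set 1 mean down to the limit, which is a filter and not a detection floor, the fall was 6.27-fold. A second probe set gave -1.95 within cKO and -2.14 within WT. The call was lost without the genotype block (adjusted p = 0.274), with no filter on dim genes (0.588) and when any 1 array was left out (0.148 to 1.00), while the difference stayed between -2.35 and -2.86 in all of these and the other settings. It was called with the mean of its probe sets, under both other scalings and with robust fitting, and it does not pass a filter at the 60th percentile.

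The cornified envelope genes were the largest group among the next genes, none of which passed the test. Lor, the main protein of the cornified envelope, was at 9.32 (cKO) and 9.01 (WT) in set 1 and at 7.34 and 5.65 in set 2, a difference of -2.67 (SE 0.31; adjusted p = 0.0717). Lce1b was at 7.95 and 7.89 in set 1 and at 6.26 and 5.37 in set 2, a difference of -2.11 (SE 0.23; adjusted p = 0.0651). In both genes the set 1 arrays were close to each other, and the WT array of set 2 was the lowest of the 4. Lce1a1 was 1.93 lower (SE 0.22; adjusted p = 0.0651) and Lce1a2 2.19 lower (SE 0.32; 0.115), with Lce1f and Lce1i at -1.85 and -1.52.

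Of 70 genes that RefSeq lists from S100a1 to S100a10, 25 were tested. Of these, 18 were lower within both genotypes, 1 was higher within both and 6 differed in direction, where 35.8% of all genes were lower and 19.8% higher within both. The 10 tested genes of the LCE group (with Crct1, cysteine-rich C-terminal 1, and 2310050C09Rik) had a median of -1.89, -1.17 within cKO and -2.35 within WT, against -0.05 over all genes. The group has 24 genes in the complex, and the others were not tested. On both arrays of set 2, 2310050C09Rik lay below the limit (4.98 and 4.44), so it passed the filter through its set 1 values. Lce1b, Lce1d and Crct1 lay below the limit on the WT array of set 2 alone. Within both genotypes, 8 of the 10 were at least 1.5-fold lower, where 0.809% of all genes were. The exceptions were Lce1h, whose difference was -0.71 though its window holds the run ACTGTCTCACAGG at the same place, and Lce3c, which differed by 0.14 within cKO and by -0.15 within WT. Between the cKO array of set 2 and the WT array of set 1 all 15 genes listed as lower had the same sign. These genes were picked with values of the same arrays, so a kept sign is largely built in and is no check. The x_at probe sets of Lce1a1 and Lce1i may also bind near-identical copies, so values of single Lce1 genes are uncertain.

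The 5 tested SPRR genes, which encode envelope cross-linkers that are also made in wounds, had a median of -0.12 within cKO and -2.06 within WT. Sprr1b was at 10.02 and 9.42 in set 1 and at 9.90 (cKO) and 6.73 (WT) in set 2. The low value was thus that of the WT array of set 2 alone. Sprr2d followed the other array that stood apart, at 8.57 on the cKO array of set 1 and at 4.82 to 6.28 on the other arrays. The 9 S100 genes had a median of -0.04. Flg, filaggrin, lay below the limit on every array.

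**Figure D2:**
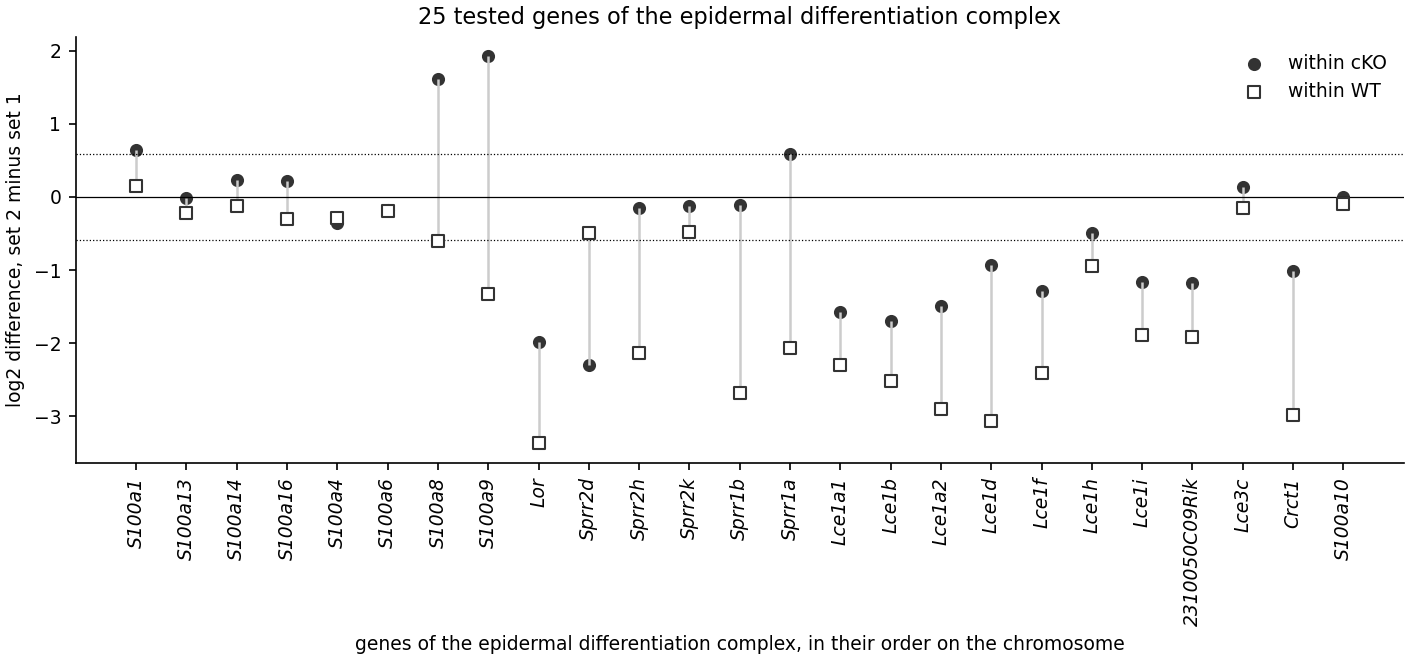
Log2 difference of set 2 minus set 1 within cKO (filled circles) and within WT (open squares) for the 25 tested genes of the epidermal differentiation complex, in chromosomal order, with dotted lines at 1.5-fold. From Lce1a1 to Crct1 every gene but Lce3c lies below 0 in both genotypes, and the SPRR genes vary, with Sprr2h, Sprr1b and Sprr1a lowest within WT and Sprr2d lowest within cKO.

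Among other genes lower in both genotypes, Mcam, a cell adhesion molecule, was at 8.61 and 8.12 in set 1 and at 6.80 and 6.57 in set 2 (-1.68, SE 0.18; adjusted p = 0.0651). Vill, a villin-like actin regulator, was at 6.40 and 6.49 in set 1 and below the limit at 4.82 and 4.79 in set 2 (limma adjusted p = 0.0651). From its set 1 mean down to the limit the fall was 2.07-fold. Bckdhb, a subunit of the enzyme that breaks down branched-chain keto acids, was at 9.22 and 9.48 in set 1 and at 7.50 and 8.02 in set 2 (-1.59, SE 0.18; adjusted p = 0.0651). Both genotypes gave like differences in each of these 3 genes, which is partly built in, as they were picked for a large difference within both. Wfdc21, Dapk2, a death-associated kinase, and Abhd14b differed by -1.58, -1.31 and -1.20.

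In the other direction, ordered by the smaller of the 2 within-genotype differences, Nedd4, Washc4, Mpp5, Akap9, Cenpe and Atrx came first, and none passed the test. By the mean difference Plscr1, a phospholipid scramblase, was the largest of the 15 named (1.65, SE 0.29; adjusted p = 0.195), at 2.25 within cKO, where its set 1 value lay below the limit, and 1.05 within WT. Nedd4, a ubiquitin ligase, was at 10.58 (cKO) and 11.05 (WT) in set 1 and at 12.21 and 12.48 in set 2, a difference of 1.53 (SE 0.17; adjusted p = 0.0651). Its other probe sets gave 0.32 and 0.54, so the size depends on the probe set. Atrx, a chromatin remodeller, was at 7.58 and 8.13 in set 1 and at 8.72 and 10.06 in set 2 (1.54, SE 0.23; adjusted p = 0.115), and its other probe sets above the limit gave 1.63 and 1.71. Cenpe, a kinetochore motor, was at 6.25 and 7.88 in set 1 and at 7.40 and 9.43 in set 2 (1.36, SE 0.19; adjusted p = 0.115), so its sets overlap and only the within-genotype differences separate them. Akap9, a scaffold of the Golgi and centrosome, differed by 1.32, Cntrl, centriolin, by 1.13 and Smc6, a subunit of a DNA repair complex, by 1.17.

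Of the 30 genes named in either direction, 12 had 20 further probe sets above the limit. By the mean over both genotypes, 0 of those had the opposite sign and 6 differed by less than 1.5-fold. List members outside the 30 genes were not part of this count, and probe sets of some of them disagreed. Within cKO alone, the other probe sets of Smc6 gave 1.72, 0.19, -0.02 and -0.49. Malat1 differed by 0.76 within cKO and by 2.32 within WT (mean 1.54, SE 0.34; adjusted p = 0.368). Malat1 was thus higher on the same array on which most of these genes were highest, and its part in their differences was not tested. Between the cKO array of set 2 and the WT array of set 1 13 of the 15 kept their sign, which the pick from the same arrays largely builds in. For Cenpe and Mme, the latter a membrane peptidase, the WT array of set 1 was above the cKO array of set 2.

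**Figure D3:**
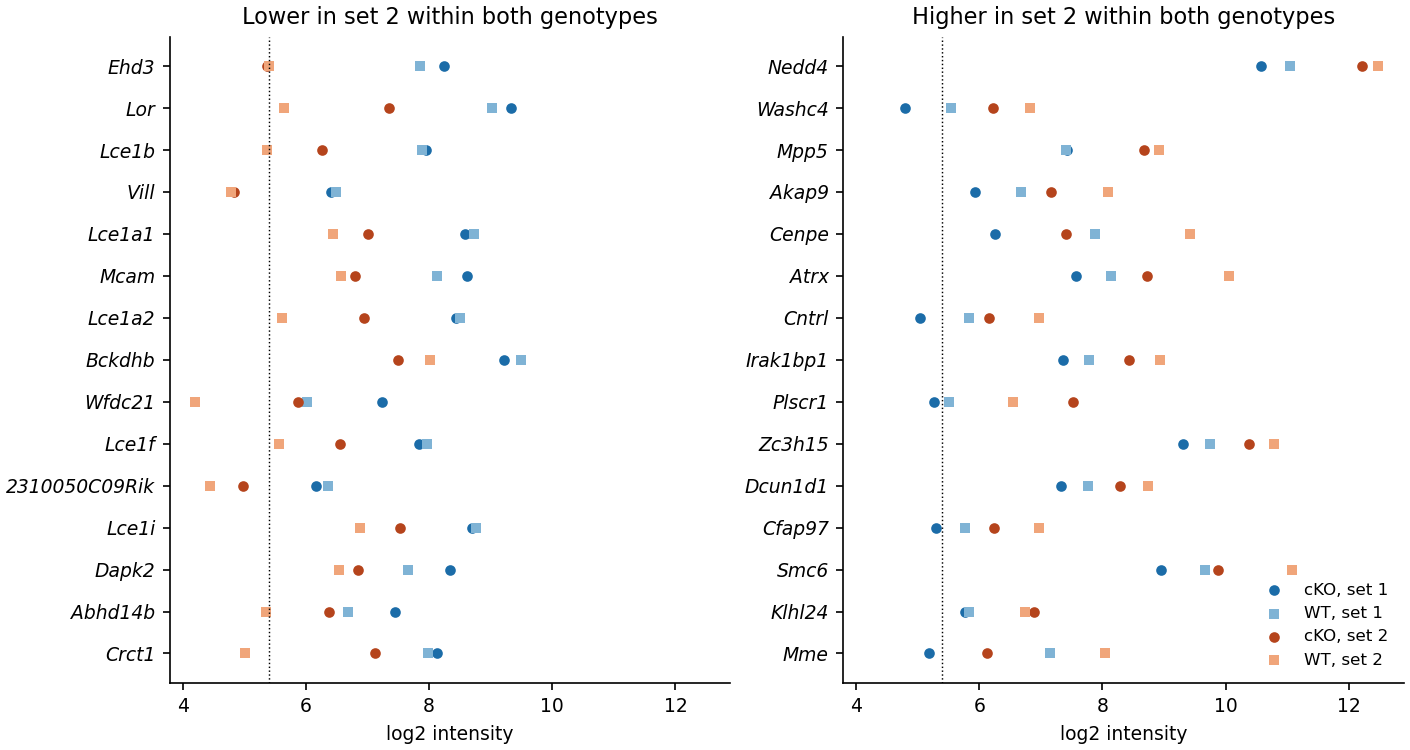
Log2 intensity on each of the 4 arrays for the 15 genes lower (left) and the 15 higher (right) in set 2 within both genotypes, set 1 in blue and set 2 in orange, circles for cKO and squares for WT, with the limit of 5.40 dotted. On the left the WT array of set 2 is the lowest for most LCE genes, and Ehd3 and Vill sit at or below the limit in set 2.

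The labels name states of the cell cycle, so genes of proliferation were counted next, and no member passed the test. Mki67, a marker of cycling cells, was at 10.14 (cKO) and 10.68 (WT) in set 1 and at 10.26 and 11.74 in set 2. It was well above the limit in the set labelled quiescent, and its difference was 0.12 within cKO and 1.06 within WT. Of 32 mitosis genes tested, 14 were higher within both genotypes and 8 lower, where 19.8% and 35.8% of all genes were, with a median of 0.02 within cKO and 0.20 within WT. Plk1 and Cdc25b, both drivers of entry into mitosis, differed by -0.47 and -0.65, whereas Smc4, Ndc80 and Cenpf, of condensin and the kinetochore, differed by 0.74, 0.59 and 0.56. In the latter group the WT difference, from 0.82 to 1.19, was the larger.

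Of 25 DNA replication genes, 5 were higher and 13 lower within both genotypes (median -0.14), where 19.8% and 35.8% of all genes were. Cdt1, which loads the replicative helicase, differed by -0.52, and Mcm2 and Mcm3, subunits of that helicase, by -0.38 and -0.41. Of 11 G1 cyclin and E2F genes, 0 were higher and 7 lower within both genotypes (median -0.18). Cdk2 was at 9.31 and 9.74 in set 1 and at 8.51 and 9.02 in set 2 (-0.76, SE 0.17, limma adjusted p = 0.372). Ccnd1, cyclin D1, differed by -0.26. Among 16 cell cycle inhibitors and quiescence genes, 1 was higher and 7 lower within both genotypes, with Cdkn1a (p21) at -0.52 and Btg2 at 0.48.

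Several lists of signalling genes held more members lower than higher in set 2, with none that passed the test, as did all genes (35.8% lower and 19.8% higher within both genotypes). Of 11 Notch genes, 0 were higher and 7 lower within both genotypes, and 5 were lower with an unadjusted p below 0.05, where 5.02% of all genes were (median -0.40, -0.34 within cKO and -0.48 within WT). The receptor gene Notch1 was at 11.35 (cKO) and 10.58 (WT) in set 1 and at 10.63 and 10.09 in set 2 (-0.61, SE 0.18; adjusted p = 0.451), so the sets overlap. Notch3, another receptor, differed by -0.72, the ligand gene Dll1 by -0.75, and the target Nrarp by -0.40. Of 8 Hedgehog genes, 0 were higher and 7 lower (median -0.31): the ligand gene Dhh differed by -0.69, the inhibitor Sufu by -0.48, the receptor and target Ptch1 by -0.29, and Gli1, a target, by -0.08. Shh, the ligand of the growing follicle, was below the limit on every array.

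Of 9 WNT target genes, 2 were higher and 5 lower within both genotypes, where 19.8% and 35.8% of all genes were. Axin2, a feedback inhibitor, was at 7.64 and 7.25 in set 1 and at 7.11 and 6.90 in set 2 (-0.44, SE 0.17; adjusted p = 0.563), and Rnf43, which removes WNT receptors, differed by -0.77. Lef1, a partner of β-catenin, was below the limit on every array. Among secreted inhibitors, Wif1 differed by -0.65, whereas Sfrp1 differed by 0.54 and Dkk3 by 0.32. The other probe set of Dkk3 gave -0.05. Of 18 BMP pathway genes, 8 were higher and 7 lower within both genotypes, with the ligand gene Bmp2 at -0.58 and the effector Smad5 at 0.67. The other probe set of Smad5 gave 0.01, so its difference rests on the probe set used. Fst, a BMP and activin antagonist, differed by 0.45, and the targets Id1 and Id3 went apart by genotype, at 0.29 and 0.21 within cKO and at -0.83 and -0.62 within WT. Of 16 EGF and FGF genes, 0 were higher and 9 lower: Spry1, a feedback inhibitor, was at 8.83 and 7.59 in set 1 and at 7.91 and 6.75 in set 2 (-0.88, SE 0.17; adjusted p = 0.255). Of 16 TGF-β genes, 2 were higher and 7 lower, with the targets Ccn1 and Ccn2 at -0.63 and -0.55.

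Of 31 bulge stem cell genes, 11 were higher and 11 lower within both genotypes, against 19.8% and 35.8% of all genes, with a median of -0.01 and none called. Ltbp2, a matrix protein that is a bulge marker, was at 8.68 (cKO) and 5.67 (WT) in set 1 and at 7.25 and 5.09 in set 2 (-1.01, SE 0.24; adjusted p = 0.390), a spread by genotype larger than that by set. Lgr5, the receptor gene that marks lower bulge cells, differed by 0.22, Runx1 by 0.42 and Tbx1 by -0.41. Of 11 hair germ and matrix genes, 1 was higher and 8 lower within both genotypes (median -0.25), with Lgr6 at -0.65, Cux1 at -0.49 and Sostdc1, a BMP and WNT antagonist, at -0.43.

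**Figure D4:**
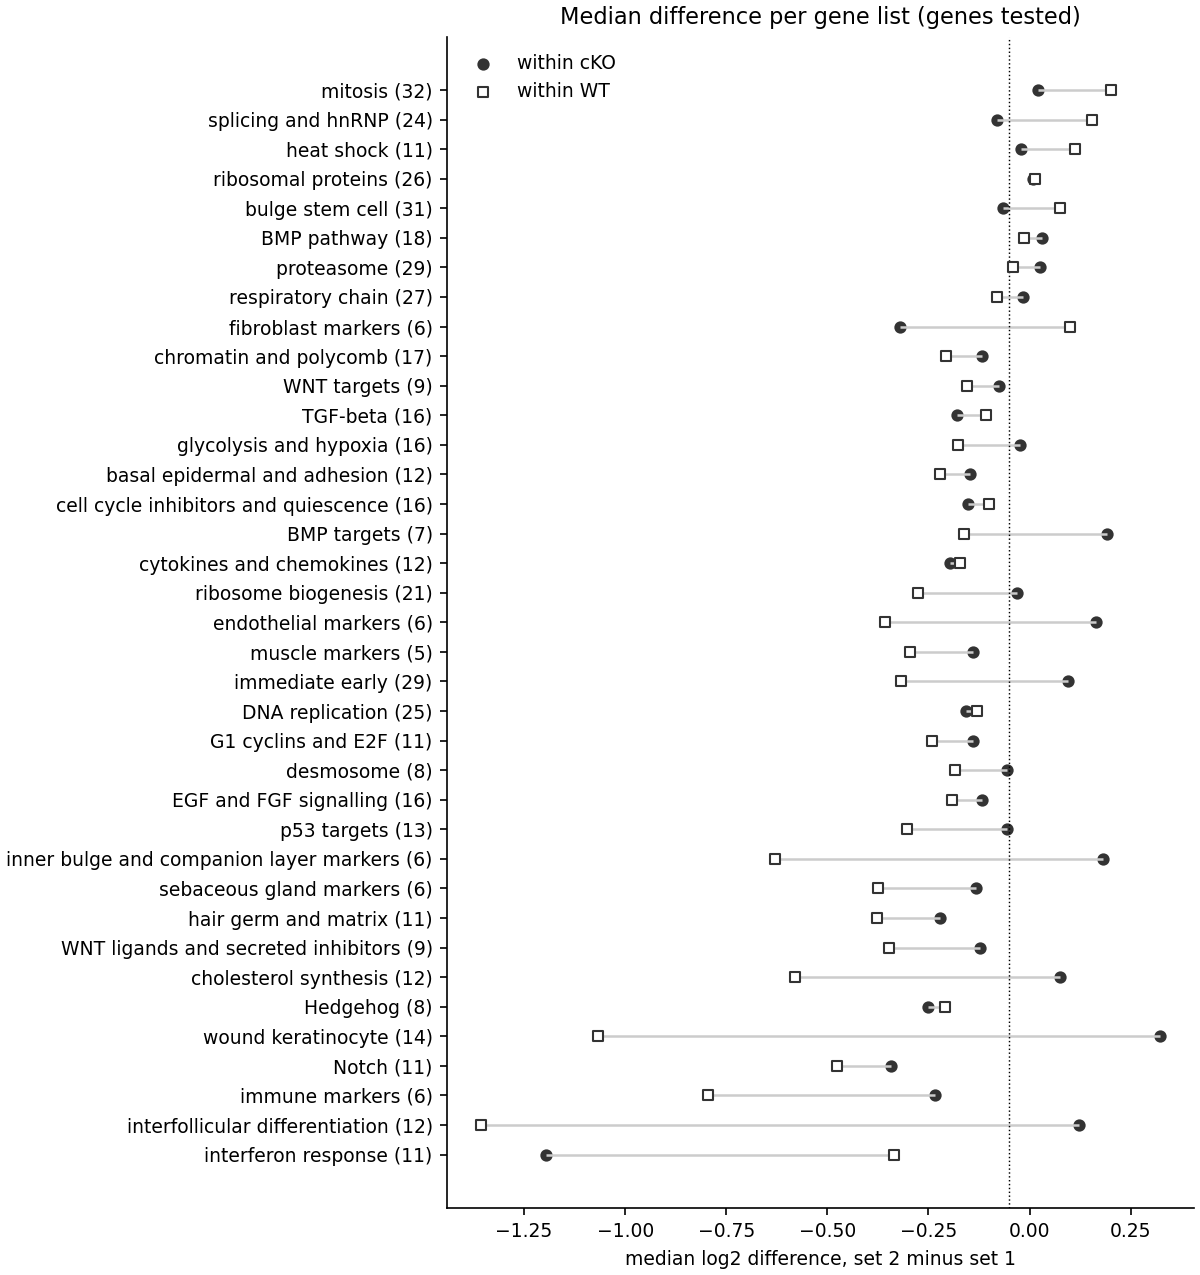
Median log2 difference of set 2 minus set 1 for each gene list with at least 5 genes tested (number in brackets), within cKO (filled circles) and within WT (open squares), ordered by the mean over both, with the median of all genes, -0.05, dotted. The interferon list lies at -1.20 within cKO and -0.34 within WT, and the interfollicular differentiation and wound lists lie above 0 within cKO and below -1 within WT.

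Of 11 interferon response genes tested, 0 were higher and 8 lower within both genotypes (35.8% of all genes were lower), and 3, among them Ifih1, were lower within cKO and higher within WT. None was called, and 7 were lower with an unadjusted p below 0.05, where 5.02% of all genes were (median -0.79, -1.20 within cKO and -0.34 within WT). Oas1a, an antiviral synthetase, was at 10.17 on the cKO and 7.54 on the WT array of set 1, and at 8.20 and 6.65 on those of set 2 (-1.43, SE 0.27; adjusted p = 0.233). Usp18, which restrains interferon signalling, was at 8.80 on the cKO array of set 1 and at 4.71, 5.75 and 4.25 on the WT array of set 1 and the cKO and WT arrays of set 2. The cKO array of set 1, the one with the high 3′ minus 5′ control differences, was thus the highest for both genes, and the part of that array was not tested. MHC class II genes of antigen-presenting cells, H2-Aa, H2-Eb1 and Cd74, differed by -0.82, -0.77 and -0.58. H2-Ab1, another class II gene, differed by 0.02 within cKO and -0.73 within WT, and the immune markers Fcer1g and Csf1r by -0.14 and -0.02. Of the 6 immune markers tested, 4 were lower within both genotypes and 2 differed in direction. Of the 17 immune markers on the array, 11 lay below the limit on every array, and their summed level was 9.75 and 9.62 in set 1 and 9.50 and 9.08 in set 2, so their part in the interferon difference was not tested. Fewer cells of a type and less RNA per cell cannot be told apart in such bulk samples.

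Most interfollicular differentiation and wound genes went apart by genotype. Of the 12 differentiation genes tested, 7 did, 1 was higher and 4 were lower within both genotypes, Lor and Lce1a1 among the latter. Of the 14 wound genes tested, 10 did and 4 were lower within both. Krt10, the keratin of suprabasal cells, was at 13.22 and 13.07 in set 1 and at 13.23 in cKO but 11.53 in WT of set 2. Krt6b, a wound and companion layer keratin, was at 11.27 and 10.96 in set 1 and at 11.45 in cKO and 7.80 in WT of set 2. In both genes 3 arrays were close and the WT array of set 2 was low. Over the 12 differentiation genes the median was 0.12 within cKO and -1.36 within WT, and over the 14 wound keratinocyte genes 0.32 and -1.07. Over all genes it was -0.03 within cKO and -0.09 within WT. The 12 cholesterol synthesis genes had a median of -0.58 within WT and 0.08 within cKO. Srebf2, the regulator of that pathway, differed by -1.14 within WT and -0.23 within cKO. Its other probe set gave -0.24 within WT and 0.11 within cKO, so the size depends on the probe set. The WT array of set 2 is also the one high in Malat1 and Neat1, and its part in these differences was not tested.

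**Figure D5:**
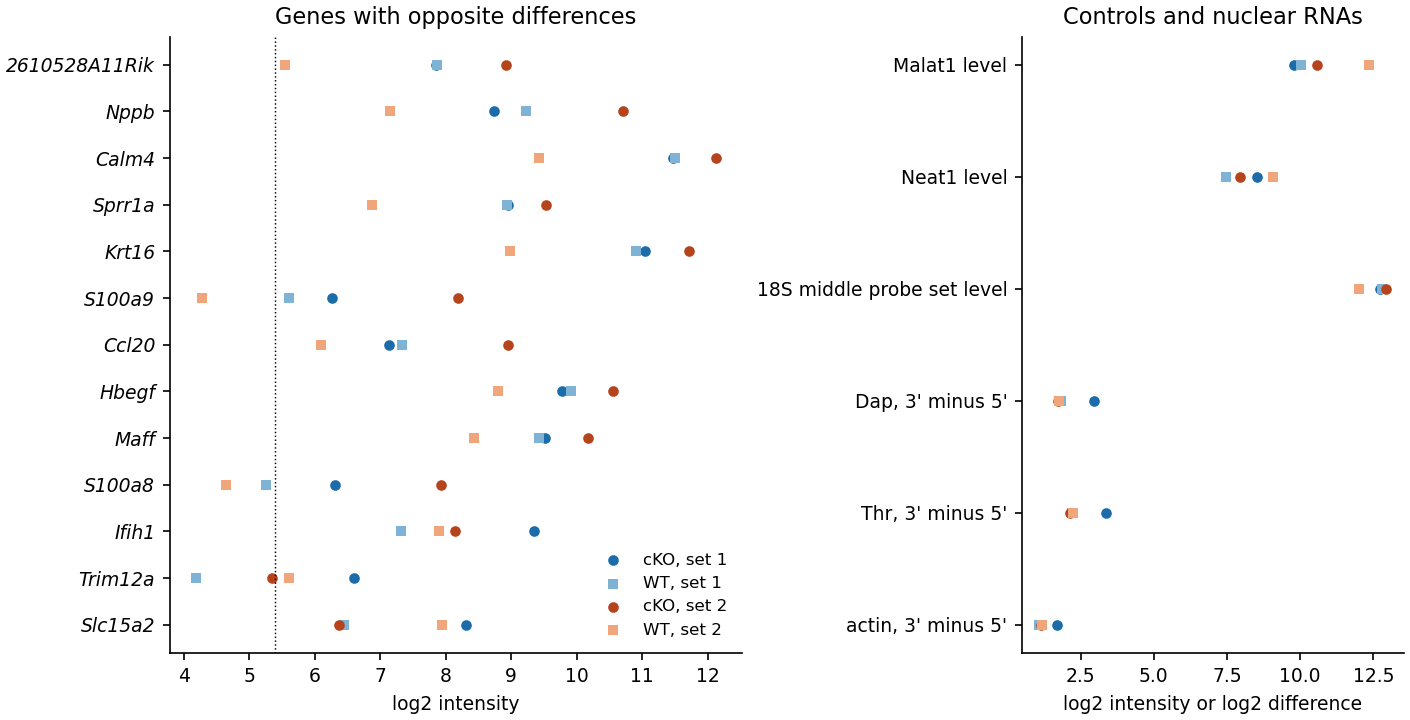
Left, log2 intensity on the 4 arrays of 13 genes at least 1.5-fold apart in opposite directions in the 2 genotypes, with the limit of 5.40 dotted (S100a8, S100a9 and Trim12a have values below it); right, levels of Malat1, Neat1 and an 18S control, and 3′ minus 5′ differences of 3 controls, on the same log2 scale. The WT array of set 2 (light squares) is the lowest for Nppb, Calm4, Krt16 and Sprr1a and the highest for Malat1, and the cKO array of set 1 is the highest for Slc15a2, Trim12a and Ifih1 and for the 3′ minus 5′ differences.

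By list medians, genes of basic cell functions differed little, though single members could differ more. The median difference was 0.02 over 26 ribosomal protein genes, -0.03 over 27 respiratory chain genes, -0.03 over 29 proteasome genes and 0.02 over 11 heat shock genes. The heat shock gene Hsp90aa1 differed by 0.23, whereas its other probe sets gave 1.16 and 0.92. Over 24 splicing genes the median was -0.08 within cKO and 0.15 within WT, where the kinase genes Clk1 and Clk4 differed by 1.09 and 1.03 within WT. Over 21 ribosome biogenesis genes the median was -0.12, though Nop58, a snoRNP protein, differed by 0.96 (SE 0.17; adjusted p = 0.195) with like values in both genotypes, 0.89 and 1.03. Of 29 immediate early genes, which respond to many stimuli, 4 were higher and 9 lower within both genotypes, where 19.8% and 35.8% of all genes were. Their medians were 0.10 within cKO and -0.32 within WT. Dusp1 was at 12.05 to 13.20 on the 4 arrays. Acta2 and Myl9, contractile genes of smooth muscle, differed by -0.91 and -0.75. Of the 5 muscle markers tested, 3 were lower and 1 higher within both genotypes, with Des at -0.14, Ckm at 0.15 and Mylpf at -0.07. Krt14, a keratin of basal cells, differed by -0.08.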

How the data were processed

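The authors deposited linear intensity values for 22690 probe sets on 4 arrays. The submitters' processing notes name RMA; the sources used here give no version or settings. No detection call comes with these values, and RMA compresses differences of dim genes. Here log2 was taken, probe sets with 1 gene symbol (20380) were kept, the brightest probe set stood for each gene, genes below the 40th percentile (log2 5.40) were left out, as was Xist, and 8032 genes were tested. limma 3.58.1 in R 4.3.3 (lmFit, eBayes) fitted set and genotype, with 1 residual degree of freedom, so the variance comes mostly from all genes together. On simulated data this fit made more false calls than its nominal rate. The genotype pairs arrays across sets by the comparison's own definition. Named genes were the 15 per direction with the largest smaller within-genotype difference, among called genes first, the members of each list that differed most (at most 6), the 6 largest in opposite directions, sort genes and controls; some list members were left out. Ehd3, whose sets are said not to overlap, was described so after its values were seen. The share of all genes without overlap was not counted. The comparison, the members and the 43 gene lists were chosen with earlier results of these data known. Promoter windows come from RefSeq (GRCm38.p6) and were compared with Biopython 1.88. The number of arrays limits precision. Alternatives were no block, other filters, probe set rules, scalings, variance models, thresholds and leaving out each array.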

Additional observations from a re-analysis of the deposited data

Results flagged for a closer look

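In 13 genes (the 6 named for opposite directions and 7 other members of the gene lists) and in 1 list the cKO and the WT difference had opposite signs and each was at least 1.5-fold (for the list, a median of at least 0.25 each way). With 1 array per genotype and set, the difference between the genotypes was not tested. The value given first is the WT minus the cKO difference.

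Higher within cKO and lower within WT were Nppb, a natriuretic peptide (-4.05; 1.96 within cKO and -2.09 within WT), 2610528A11Rik (-3.40), the neutrophil-associated alarmins S100a9 (-3.25) and S100a8 (-2.22), the chemokine Ccl20 (-3.05), Calm4, a calmodulin of differentiating keratinocytes (-2.74), Sprr1a (-2.65), Krt16 (-2.59), the growth factor Hbegf (-1.92) and the transcription factor Maff (-1.64). The median difference of the wound keratinocyte list was 0.32 within cKO and -1.07 within WT (-1.39), and Sprr1a, Krt16 and S100a8 are among its members. S100a8 lay below the limit of 5.40 on both WT arrays and S100a9 on the WT array of set 2, so their WT differences rest on values below the limit. For all 10 genes the cKO array of set 2 was the highest of the 4 and the WT array of set 2 the lowest.

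Lower within cKO and higher within WT were Slc15a2, a peptide transporter (3.45; -1.94 within cKO and 1.51 within WT), Trim12a (2.67) and the RNA sensor Ifih1 (1.79). Trim12a lay below the limit on the WT array of set 1 (4.18) and the cKO array of set 2 (5.35), so the sizes of its differences rest on values below the limit. For these 3 the cKO array of set 1 was the highest.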

How the results depend on the processing

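The count of called genes varied over the alternatives. limma called 0 higher and 1 lower; with variance trend and robust fitting it called 18 and 16, with each array centred on its median 9 and 14, after a second quantile normalisation 1 and 8, with the filter at the 60th percentile 9 and 8, with each probe set tested on its own 2 and 3, and at an adjusted p below 0.10 4 and 8. With no filter it called 0 lower, as it did with no replicate block (the genotype pairing left out) and when each array was left out in turn (0 to 0 lower, 0 to 0 higher); the last was fitted without the block, the lone array being assumed to vary like the others. The prior degrees of freedom were 5.83 in the fit reported, 8.79 after centring, 12.8 with robust fitting and 3.30 with no filter. The second normalisation and centring moved the median difference of all genes from -0.05 to -0.06 and -0.07. Of genes at least 1.5-fold apart within both genotypes, 32 were lower with the filter at the 60th percentile; at 2-fold 10 were higher and 15 lower. Of 341 values of the 30 named genes over the alternatives, 4 changed sign, and none of those was a called value. Of 40 list medians, 3 changed sign over the scalings, 11 changed sign within cKO alone and 3 within WT alone. No called value changed sign. The 1.5-fold counts under other filters, probe set rules and scalings, and the cKO array of set 2 against the WT array of set 1, were chosen after seeing the data.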
